A study of Rattus norvegicus with 60 samples.

Results

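The small RNA count files of rat dorsal root ganglion list precursor hairpins beside the mature microRNA arms cut from them, and 269 of the 439 listed hairpins are described here. They were chosen by measured values: a hairpin is any feature whose name carries no arm ending, and it was kept where its raw count was 5 or more in at least 10 of the 20 small RNA libraries. The remaining 170 hairpins fell short of that rule. At the edge, 9 hairpins reached a count of 5 in exactly 10 libraries, among them rno-mir-30b with a mean of 4.5 and rno-mir-3594 with a mean of 10.8 counts, and 15 reached it in exactly 9 libraries, among them rno-let-7g with a mean of 4.55 and rno-mir-3572 with a mean of 6.75 counts. Each of the 439 hairpins has 2 arms listed under its own name, and no arm is shared between hairpins by name. For numbered loci such as mir-181b-1 no second locus is listed, and RefSeq names its 5′ arm miR-181b-5p, without a locus number. Arm counts of such hairpins may therefore include products of loci not listed.

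The study set Sprague-Dawley rats given 0.1 mL of complete Freund's adjuvant (CFA), an oil emulsion that sets off lasting inflammation, under the skin of 1 foot, against untreated rats. These ganglia contain the cell bodies of pain-sensing and other sensory neurons, with satellite glia and Schwann cells around them. Each group has 10 small RNA libraries made from total RNA with a multiplexed small RNA kit. The labels used here give no sex, no time after injection and no side for the ganglia, and controls were untreated rather than given a sham injection. They do not say whether tissue of several animals was pooled, so p-values measure the spread between these libraries.

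A microRNA gene is first copied into a long transcript that folds back on itself. In the nucleus Drosha and its partner Dgcr8 cut out a hairpin, exportin-5 carries it to the cytoplasm, and Dicer removes the loop to leave 2 short arms, of which usually 1 is kept in an Argonaute protein while the other is degraded. The arm finds its targets mainly through its seed, the bases near its 5′ end. A read counted on a hairpin feature rather than on an arm may come from the uncut precursor, from its loop or flanks, or from another RNA of the same locus. The sources used here do not say how reads were divided between hairpin and arm features or whether strand was used.

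The hairpins below show the range of that division, with RefSeq sequences (build GRCr8) written 5′ to 3′ and the annotated mature arms in capitals. The first 3 are abundant hairpins with different courses over the libraries, the next 3 are among the 5 with the smallest p-values for a lower hairpin-to-arm ratio in CFA, let-7e and mir-3596c lie on opposite strands of the same locus, and mir-678 and let-7i stand at the ends of the ratio scale.
rno-mir-431: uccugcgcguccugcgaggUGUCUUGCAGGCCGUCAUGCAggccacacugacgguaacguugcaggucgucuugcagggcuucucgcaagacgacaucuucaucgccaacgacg
rno-mir-425: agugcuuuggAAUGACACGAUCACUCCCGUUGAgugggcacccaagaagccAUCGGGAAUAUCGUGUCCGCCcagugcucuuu
rno-mir-214: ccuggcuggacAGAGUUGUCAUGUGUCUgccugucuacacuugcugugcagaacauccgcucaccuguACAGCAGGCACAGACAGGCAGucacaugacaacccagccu
rno-mir-497: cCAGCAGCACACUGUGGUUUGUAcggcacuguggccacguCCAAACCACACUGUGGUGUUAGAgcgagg
rno-mir-615: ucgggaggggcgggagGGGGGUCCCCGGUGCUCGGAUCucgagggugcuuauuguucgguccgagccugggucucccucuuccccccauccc
rno-mir-192: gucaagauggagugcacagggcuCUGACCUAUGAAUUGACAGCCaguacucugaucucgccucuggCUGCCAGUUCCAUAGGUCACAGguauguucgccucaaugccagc
rno-let-7e: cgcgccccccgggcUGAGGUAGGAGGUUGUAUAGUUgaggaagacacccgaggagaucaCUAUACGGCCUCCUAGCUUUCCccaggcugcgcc
rno-mir-3596c: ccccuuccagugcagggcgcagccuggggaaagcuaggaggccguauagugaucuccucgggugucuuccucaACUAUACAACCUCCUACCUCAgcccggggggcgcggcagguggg
rno-mir-678: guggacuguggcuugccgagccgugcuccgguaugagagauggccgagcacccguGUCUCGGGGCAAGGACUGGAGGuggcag
rno-let-7i: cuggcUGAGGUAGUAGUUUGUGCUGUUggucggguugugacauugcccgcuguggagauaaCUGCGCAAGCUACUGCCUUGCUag
The mir-431 hairpin has 114 bases, of which 93 lie outside the 1 arm RefSeq annotates (chromosome 6, 134326449 to 134326562, plus strand, within the span of Rtl1). The mir-497 hairpin has 69 bases and 24 outside its arms (chromosome 10, 55450171 to 55450239, plus strand, beside Mir195). For mir-615 (chromosome 7, 136030353 to 136030444, plus strand, within the Hoxc cluster) the annotated arm is on the 5′ side, while 48657 counts fell on the 3′ arm and 435 on the 5′ arm.
For mir-181b-1, the hairpin with the smallest p-value below, the mature arm is shown with its seed (bases 2 to 8) in capitals, beside miR-497-5p, whose seed AGCAGCA is that of the miR-15/16 family.
miR-181b-5p: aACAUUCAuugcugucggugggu
miR-497-5p: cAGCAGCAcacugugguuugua
These seeds differ, and so do those of miR-192-5p (UGACCUA) and the annotated miR-615 arm (GGGGUCC).

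The libraries held between 3360055 and 13097872 counts. In controls the 269 hairpins took 0.113% at the lowest, 0.197% at the median and 0.920% at the highest of all counts, and in CFA 0.0806%, 0.153% and 0.337%. Controls 1 to 3 stood apart, with 0.402% to 0.920%, whereas the other 7 controls lay between 0.113% and 0.248% and overlapped CFA. Controls 1 to 3 were also shallower, with a median total of 4042133 counts against 6822425 in the other 7. CFA 3, with the lowest share, held 3652306 counts. No 2 libraries of a group were alike within sampling noise (the smallest chi-square per degree of freedom was 57.5). Arms of the sensory neuron microRNAs miR-183, miR-96 and miR-182 were plentiful everywhere, at 40847 to 59475 CPM (counts scaled to library totals adjusted by TMM factors) in controls and 24672 to 63633 CPM in CFA, with none of the 6 arms at 0 throughout. Controls 1 to 3 lay between 47008 and 54317 CPM for that list. CFA 8, which had the highest hairpin share in its group, had the lowest sensory neuron sum and 726 CPM of the liver microRNA miR-122, against at most 17.8 CPM in any other library. CFA 3, with the lowest hairpin share, had the highest glial sum (miR-219a and miR-338, 7498 CPM) and the highest blood sum (miR-451, miR-144, miR-142, miR-223, miR-150 and miR-486, 4794 CPM). The median glial sum was 3209 CPM in controls and 4060 CPM in CFA. Medians were 25714 and 31307 CPM for a neuron sum (miR-124, miR-9a, miR-128 and miR-138), and 1819 and 1743 CPM for the blood sum. The ranges of the groups overlapped for each of these sums. The part of these differences in the results was not tested. In bulk tissue, fewer cells of a type and less RNA per cell cannot be told apart.

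**Figure D1:**
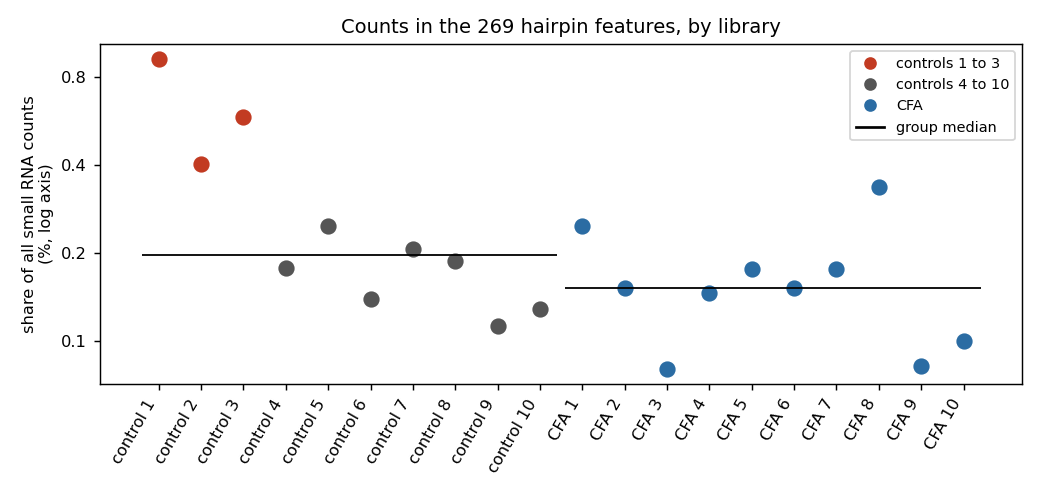
Share of all small RNA counts in the 269 hairpin features (%, log axis) in each of 20 libraries; points are libraries, black lines the group medians. Controls 1 to 3 lie at 0.402% to 0.920%, above CFA 8 at 0.337%, and the other controls overlap the CFA libraries.

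Most hairpins were counted rarely. The median of the members' mean counts was 13 per library, 167 of 269 averaged under 20, and 61 reached a count of 5 in all 20 libraries. The 10 most abundant hairpins held 52.2% of all member counts and rno-mir-431 alone 9.21%. The count threshold was met in more controls than CFA libraries by 175 members, in more CFA libraries by 10, and equally often by 84. Since members could enter through controls alone, counts over those that passed a further filter are given with values for all 269. Those values undo the further filter only. They do not undo the count rule itself, which favours hairpins that are higher in controls as much as those higher in CFA, and which 175 members met in more controls.

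Hairpin counts bore no fixed proportion to the arms. Pooled over the 20 libraries, members had a median of 7.81 hairpin counts per 100 counts of their own arms, from 0.00139 for rno-let-7i to 4132 for rno-mir-678. The ratio was under 1 for 92 hairpins, 1 to 100 for 114 and over 100 for 63, and the last 63 held 51.1% of member counts. The lowest 5 were let-7i, mir-99a (0.00183), mir-26a (0.00212), mir-30a (0.00328) and mir-27b (0.0033), well-studied microRNAs that are abundant in many tissues. For let-7i, 123 hairpin counts stood beside 8830654 counts of the 5′ arm. The highest 5 were mir-678, mir-3544 (3123), mir-6330 (2696), mir-3596c (1987) and mir-3596b (1780), whose arms were nearly uncounted. For mir-678, within the span of Prmt2, 5620 hairpin counts stood beside 43 and 93 counts of its arms.

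**Figure D2:**
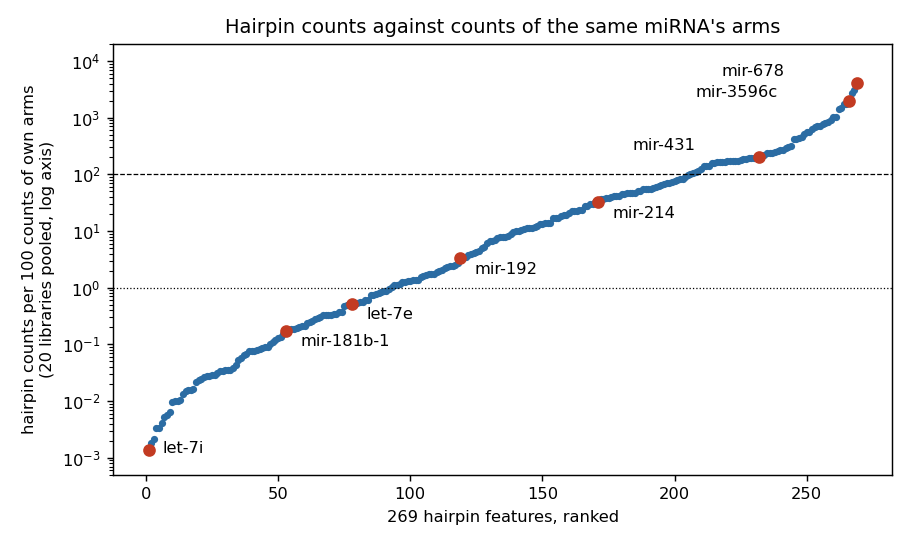
Hairpin counts per 100 counts of the same microRNA's arms (20 libraries pooled, log axis) for the 269 hairpins in rank order; red points are named, the dashed line marks 100 and the dotted line 1. Values run from 0.00139 for let-7i to 4132 for mir-678.

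Length, annotation and neighbours varied with that ratio. RefSeq hairpins were matched to 210 members; 59 had no match. Hairpins under 1 per 100 had a median length of 90 bases with 50 outside the arms, those between 1 and 100 had 97 and 64, and those over 100 had 108.5 and 78.5. RefSeq annotates both arms for 56 of 67 hairpins under 1, 49 of 95 between 1 and 100, and 16 of 48 over 100, so part of the difference in bases outside arms follows from the annotation. Members with only 1 annotated arm had a median of 51.2 hairpin counts per 100 and those with 2 arms 1.35. Median GC content was lowest in the first class, and 54.3% and 54.5% in the others, and the median folding energy computed per base of hairpin was -0.452, -0.435 and -0.400 kcal/mol. The 65 members numbered 3000 or above, a range given to microRNAs named late, had a median of 106.2, with 33 over 100 and 1 under 1. The rest had a median of 1.47, with 30 over 100 and 91 under 1. Hairpins with another hairpin within 10 kb on the same strand (82 of 210) had a median of 1.30, against 18.9 for those without. These are descriptions across hairpins, which are not independent replicates.

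A microRNA lay on the opposite strand of 31 of the 210 matched members, of 6 of 67 under 1, 13 of 95 between 1 and 100 and 12 of 48 over 100. In 8 loci both strands gave a member. The let-7e hairpin (chromosome 1, 67350229 to 67350321, plus strand) lies wholly within mir-3596c (67350220 to 67350336, minus strand), with 93 shared positions. The mir-337 and mir-3544 hairpins on chromosome 6 overlap by 85 positions, and their CPM correlated at r = 0.81 (log2 scale, 20 shared libraries), while mir-214 and mir-3120 on chromosome 13 overlap almost wholly with r = -0.35. For let-7e and mir-3596c r was 0.56. Control 5 held 979 counts of the let-7e hairpin, or 135 CPM against 1.13 to 29.5 CPM in the other 19 libraries, and had 9.41 CPM of mir-3596c, inside the range of the others. Without knowing strand use, counts of such a pair cannot be assigned to either strand with certainty.

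To ask which hairpins fell in CFA, the counts of all features were fitted with edgeR's quasi-likelihood test and p-values were adjusted by Benjamini-Hochberg over the 692 features tested, which left out 116 members with too few counts. No member passed an adjusted p of 0.05 in either direction (0% of all features tested lower and 0% higher), and the smallest adjusted p of a member was 0.0720. At an unadjusted p under 0.05, 74 members were lower, against 13.4% of all features, and 1 was higher, against 10.1%. DESeq2 called 24 members and 2 arms lower at its adjusted threshold, together 3.76% of all features, and 0 members and 6 arms higher, together 0.867%. The median log2 fold change of the tested members was -0.92, with 146 below 0, beside 0.11 for the arms and 0.024 for all features tested. Fitted without a filter, all 269 members had a median of -0.71 with 251 below 0, beside -0.20 for all features. No member had every CFA library below every control.

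Without controls 1 to 3, 0 members passed in edgeR (0% of 709 features lower) or DESeq2, and the smallest edgeR adjusted p of a member was 0.336. At an unadjusted p, 26 of 159 members and 11 of 550 arms were then lower, together 5.22% of all features. Of the 74 members lower with all libraries, 66 had a fold change below 0 without these controls and 25 an unadjusted p under 0.05. The median of the 159 members tested was -0.39, and of all 269 without a filter -0.43 with 221 below 0. When hairpins were scaled to hairpins alone, so that a shift common to them is removed, 3 of 151 were lower (1.99%) and 12 higher (7.95%) at an unadjusted p, 0 passed the adjusted threshold, and the median was 0.065. The lower 3 were mir-497, mir-349 and mir-296.

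The effect of controls 1 to 3 differed with abundance. The 23 members with a mean count of 100 or more had a median log2 fold change of -0.78, with 18 below 0, in the fit without a filter, and of 0.37, with 5 below 0, once controls 1 to 3 were left out. The 79 members averaging 20 to 100 counts went from -0.74 to -0.27, with 62 still below 0. The 167 members averaging under 20 went from -0.70 to -0.55, all but 13 of them still below 0. These classes were set after the data were seen, and the difference between them has no test. Controls 1 to 3 are the libraries with the highest hairpin share, and the 10 most abundant hairpins hold 52.2% of member counts. Leaving these libraries out therefore raises the fold change of abundant hairpins in part by construction.

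**Figure D3:**
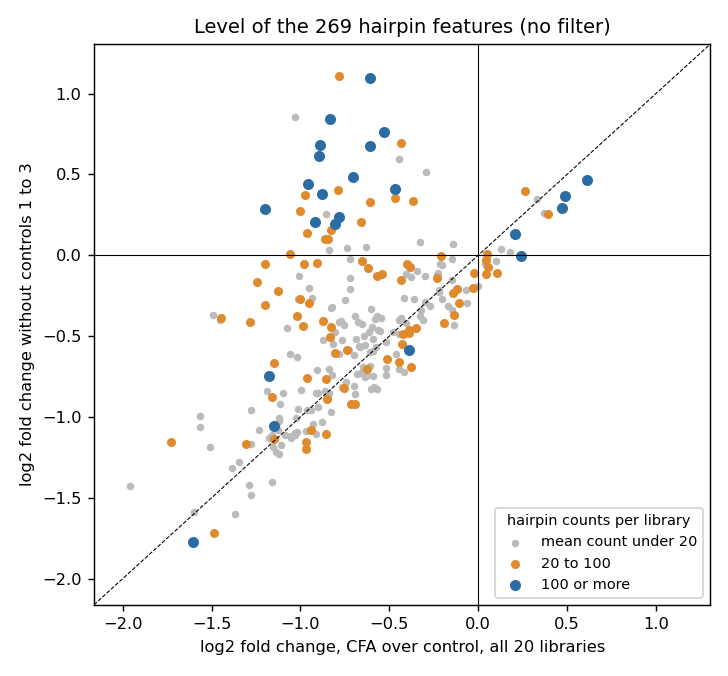
Log2 fold change of each of the 269 hairpins, CFA over control, with all 20 libraries (horizontal) and without controls 1 to 3 (vertical), fitted without a filter and coloured by mean count; the dashed line marks equal values. Hairpins averaging 100 or more counts move from a median of -0.78 to 0.37, and those under 20 from -0.70 to -0.55.

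Among the 10 most abundant hairpins, 6 carried that pattern. The mir-425 hairpin, which lies with mir-191 within the span of Dalrd3, stood at 38.4 CPM at the lowest, 123.9 at the median and 846 at the highest in controls, and at 16.1, 108 and 282 CPM in CFA. Controls 1 to 3 held its 3 highest values, and the groups overlapped over nearly the whole CFA range. Its log2 fold change was -1.05 (SE 0.56, edgeR adjusted p = 0.238) and 0.13 without controls 1 to 3. The mir-320 hairpin, which in mouse is made without Drosha, ran from 25.99 through 64.3 to 569 CPM in controls and from 16.1 through 59.5 to 298 CPM in CFA. Its log2 fold change was -0.79 (SE 0.62, edgeR adjusted p = 0.437) and 0.72 without those controls. The mir-344b-1 hairpin ran from 21.4 through 54.5 to 522 CPM in controls and from 13.8 through 56.2 to 281 CPM in CFA, with log2 fold changes of -0.86 and 1.05. None of these differences passed the test with or without controls 1 to 3. The others were mir-1193 of the imprinted Dlk1-Dio3 region (-1.21, and 0.38 without controls 1 to 3), mir-1843b within Cop1 (-1.16 and 0.14) and mir-6327 within the acid-sensing channel gene Asic2 (-1.13 and 0.31). Over the 20 libraries these 6 correlated at r = 0.87 to 0.97 with the summed CPM of all other members, and CFA 8 held the highest CFA value of all 6. Without controls 1 to 3, r ran from 0.73 for mir-344b-1 to 0.94 for mir-6327. Abundant hairpins weigh most in that sum, so part of r is likeness among these 6 themselves. To their own arms these 6 had r from -0.65 for mir-320 to 0.85 for mir-344b-1, with 0.71 for mir-6327.

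The remaining 4 of the 10 did not follow the other hairpins. The mir-431 hairpin of the Dlk1-Dio3 region ran from 133.6 through 186.0 to 222.5 CPM in controls and from 93.2 through 186 to 259 CPM in CFA, with r = 0.01 to the other members and r = 0.74 to its own arms. Its hairpin counts were 201.1 per 100 arm counts, and its log2 fold change was 0.038 (SE 0.16, edgeR adjusted p = 0.884). The mir-214 hairpin within Dnm3 ran from 37.4 through 70.8 to 164 CPM in controls and from 37.8 through 68.8 to 179 CPM in CFA, with r = -0.29 to the other members and 0.88 to its arms. The mir-185 hairpin within Tango2 had r = -0.15 to the other members and 0.67 to its arms. The mir-3102 hairpin ran from 58.6 through 95.8 to 140 CPM in controls and from 81.5 through 131 to 256 CPM in CFA, where 9 libraries lay above the control median and CFA 3 was highest. It was the 1 member higher at an unadjusted p (edgeR adjusted p = 0.175, log2 fold change 0.46, SE 0.20), and had r = -0.51 to the other members. Of the 102 members averaging 20 or more counts, 47 had r over 0.8 to the others and 25 under 0.3, with a median of 0.77, and of 0.64 without controls 1 to 3. To their own arms the median was 0.11, with 13 over 0.7 and 43 below 0. All these coefficients share the same libraries and scaling and carry no test.

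**Figure D4:**
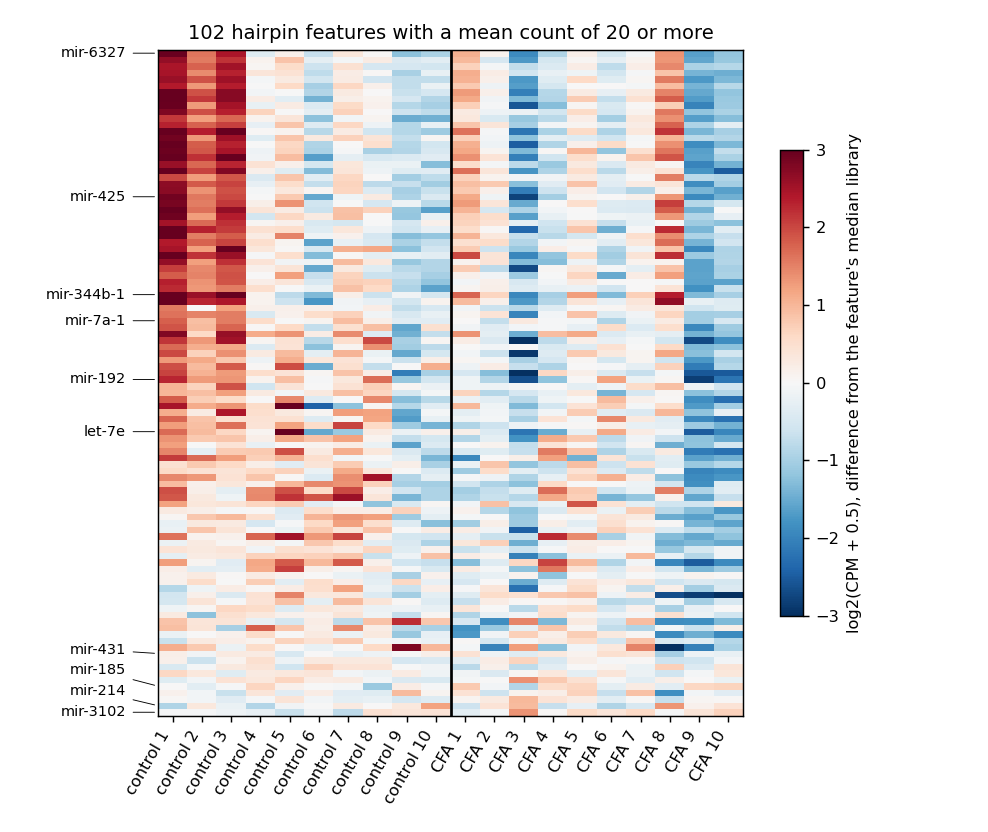
Level of the 102 hairpins averaging 20 or more counts (rows, ordered by correlation with the other hairpins) in 20 libraries (columns), as log2(CPM + 0.5) minus the row's median. Rows at the top, such as mir-6327 and mir-425, are high in controls 1 to 3 and CFA 8. Rows at the bottom, such as mir-431, mir-214 and mir-3102, lack that joint pattern, although mir-214 is highest in CFA 8.

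The 10 hairpins with the smallest p-values for a lower level averaged from 11.2 (mir-200a) to 41.95 (mir-349) counts per library, beside a median of 13 over the members. The mir-181b-1 hairpin, whose arms are abundant in brain and lymphoid cells, stood at 1.56 CPM at the lowest, 3.03 at the median and 4.84 at the highest in controls, and at 0.383, 1.14 and 2.29 CPM in CFA. In CFA 6 of 10 libraries lay below every control and 10 below the control median. Controls averaged 3.03 ± 0.861 CPM and CFA libraries 1.17 ± 0.635 (SD, n = 10 each), from a mean of 14.1 counts, and the fitted change was -1.34 on the log2 scale (SE 0.28). It was the member with the edgeR adjusted p of 0.0720, and its value without controls 1 to 3 was -1.18. The mir-497 hairpin ran from 0.962 through 2.83 to 12.7 CPM in controls and from 0 through 0.742 to 2.31 CPM in CFA, where 7 libraries lay below every control. Its log2 fold change was -2.18 (SE 0.50, edgeR adjusted p = 0.0723), and -1.51 without controls 1 to 3, which included its 2 highest libraries. The mir-296 hairpin, beside Mir298 on chromosome 3, had 8 of 10 CFA libraries below every control and fell short of the test at -1.76 on the log2 scale (edgeR adjusted p = 0.102, SE 0.48). The others were mir-6326 (-1.30), mir-3542-1 (-1.50), mir-152 (-1.15), mir-3561 (-1.21), mir-349 (-1.93), mir-200a (-1.22) and mir-7a-1 (-1.04). Each of these 10 was called by DESeq2, and each stayed below 0 without controls 1 to 3, from -0.52 for mir-7a-1 to -1.68 for mir-296. After mir-3102, the higher members with the smallest p-values were mir-331 (0.31), mir-185 (0.28), mir-345 (0.22) and mir-214 (0.086), none past an unadjusted p of 0.05.

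The ratio of a hairpin to its own arms is formed within a library and needs no scaling between libraries. A swing in hairpin share between libraries stays in it. Within groups, the SD was 0.850 for the log2 ratio of summed members to arms and 0.844 for the log2 member share. Members with enough hairpin and arm counts were tested with edgeR on hairpin counts with the arm counts as offset (41 had a mean arm count under 10), and these are all the features in that test. At an adjusted p under 0.05, 4 were lower in CFA (3.03%) and 0 higher. At an unadjusted p 49 were lower (37.1%), of which 40 were also lower in level, and 1 was higher (0.758%). The median log2 difference was -0.81 with 115 below 0 and 17 above, and -0.82 with 203 below 0 over the 228 members fitted without a filter. As a reference between mature products, the less abundant arm was set against the more abundant one in the same way: of 207 pairs 0 passed (0%), 17 were lower (8.21%) and 17 higher (8.21%) at an unadjusted p, and the median was -0.021. That reference holds no hairpin counts, so it cannot show a swing in hairpin share. Without controls 1 to 3, 0 hairpin ratios passed (0%, smallest adjusted p 0.0881), 18 were lower (13.6%) and 3 higher (2.27%) at an unadjusted p, and the median was -0.39 with 93 below 0. Of the 49, 15 kept an unadjusted p under 0.05.

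Of the 4 ratios that fell, mir-181b-1 had the smallest p-value. It stood at 0.161 hairpin counts per 100 arm counts at the lowest, 0.272 at the median and 0.493 at the highest in controls, and at 0.0222, 0.101 and 0.215 in CFA. In CFA 9 of 10 libraries lay below every control. The log2 difference was -1.55 (SE 0.34, edgeR adjusted p = 0.0156), and -1.33 without controls 1 to 3 (adjusted p = 0.119). Its arms together averaged 1049.6 ± 113 CPM without and 1266 ± 238 with CFA (SD, n = 10 each), and the 5′ arm had a log2 fold change of 0.27 (edgeR adjusted p = 0.160), a difference that did not pass the test. Those arm counts may include products of unlisted loci.

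The mir-497 ratio ran from 0.571 through 1.43 to 7.13 per 100 in controls and from 0 through 0.345 to 1.53 in CFA, where 7 of 10 libraries lay below every control. Its log2 difference was -2.12 (SE 0.55, edgeR adjusted p = 0.0342), and -1.33 without controls 1 to 3. Its arms stood at 203 ± 36.6 and 210.6 ± 55.9 CPM (SD, n = 10 each). The mir-3542-1 ratio ran from 8.93 through 79.2 to 369.2 in controls and from 18.6 through 29.4 to 42.4 in CFA, so that no CFA library lay below every control but all 10 lay below the control median. Its difference was -1.85 (SE 0.46, edgeR adjusted p = 0.0342), and -2.01 without controls 1 to 3 (adjusted p = 0.0881), on a mean of 42.3 arm counts. The mir-615 ratio ran from 0.416 through 2.54 to 8.44 in controls and from 0.0811 through 0.775 to 1.68 in CFA, with 3 CFA libraries below every control. Its difference was -1.97 (SE 0.53, edgeR adjusted p = 0.0383), and -1.15 without controls 1 to 3. Each of these 3 calls was lost when 1 library was left out, in 11 of 20 such fits for mir-497, 10 for mir-3542-1 and 13 for mir-615; mir-181b-1 kept its call in all 20 and lost it without controls 1 to 3 or CFA 8 to 10.

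The next ratio was that of mir-192, a microRNA of gut, liver and kidney, with 1.01, 5.30 and 19.03 per 100 in controls and 0.314, 1.47 and 4.49 in CFA. All 10 CFA libraries lay below the control median, the difference was -1.79 (SE 0.52, edgeR adjusted p = 0.0542), and it was -1.10 without controls 1 to 3. The let-7e ratio ran from 0.0930 through 0.412 to 5.44 in controls, the top value in control 5, and from 0.0305 through 0.231 to 0.663 in CFA. Its difference was -2.05 (SE 0.70, edgeR adjusted p = 0.0878), and -1.04 without control 5. Among higher ratios, mir-3557, which overlaps mir-378 on the opposite strand, had the smallest p-value, with a difference of 1.39 (SE 0.54, edgeR adjusted p = 0.0989) on 350 arm counts in all, and 0.45 without CFA 9. The other 4, mir-6316 (1.31), mir-632 (0.56), mir-3543-1 (0.46) and mir-6323 (0.40), had unadjusted p-values above 0.05, and mir-6316 was at -0.66 without CFA 1.

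**Figure D5:**
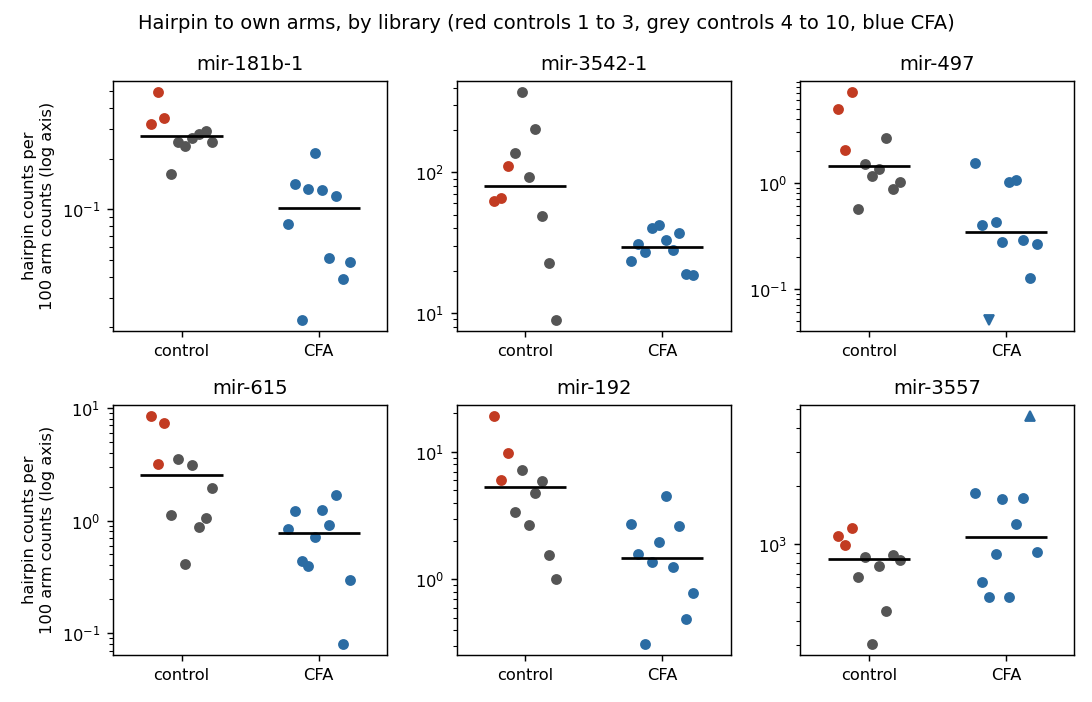
Hairpin counts per 100 counts of the same microRNA's arms (log axis) for 6 hairpins in the 10 control and 10 CFA libraries; black lines are group medians, a downward triangle marks a library with 0 hairpin counts and an upward triangle one with 0 arm counts, both placed off scale. For mir-181b-1, 9 of 10 CFA libraries lie below every control; for mir-3557 the groups overlap.

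Families and genomic groups are set beside all members (median -0.71, 251 of 269 below 0, fitted without a filter). At an unadjusted p, 48.4% of the tested members and 13.4% of all features tested were lower, and no group count given here was tested against these shares. Of 48 listed hairpins of the imprinted Dlk1-Dio3 region, 22 were members, 20 had a fold change below 0 and the median was -0.61; 4 of the 13 tested were lower at an unadjusted p. Of 15 neuronal hairpins, among them mir-132 and mir-7a-1, 11 were members, 9 were below 0 and the median was -0.64, and 4 of 7 tested were lower. The mir-30 family had 5 members, all below 0 (median -0.52), and 2 of 3 tested were lower. Both mir-181 members were lower at an unadjusted p, with a median of -1.004. The let-7 and mir-98 group had 5 members, 4 below 0, with a median of -1.05. Of the 3 tested, whose median was -0.22, 1 was lower. The sensory neuron hairpins of the mir-183, mir-96 and mir-182 cluster gave mir-183 and mir-96 as members, both tested; mir-183 was lower at an unadjusted p (-1.17), while mir-96 was at -0.14, and at 0.042 without a filter. No member of these groups passed the edgeR threshold in level. The pooled ratio differed more between groups than the fold change, with medians of 0.0149 hairpin counts per 100 for let-7 and mir-98, 0.0234 for mir-30, 0.882 for Dlk1-Dio3, and 32.3 for the 185 members in no listed group.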

How the data were processed

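The deposited small RNA files hold raw counts per feature made by the authors, whole numbers with a different total in each library. Per the submitters' processing notes, cutadapt 2.1.0, STAR 2.7.0, DESeq2 1.29.0 and build rn4 were used in the series. The sources used here do not say how a read was assigned to a hairpin or an arm, or which strand setting was used.

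The members and gene lists were chosen with earlier results of these data known. CPM were computed here from library totals multiplied by TMM factors (0.715 to 1.33); shares use the totals alone. Levels were tested with edgeR 4.0.16 (quasi-likelihood test, TMM factors, default expression filter, CFA against control, Benjamini-Hochberg adjustment over all features tested). Ratios were tested with the same model on hairpin counts, with the log of the summed arm counts plus 0.5 as offset and a mean arm count of 10 or more. DESeq2 1.42.0, limma 3.58.1, other scalings, filters and left-out libraries were alternatives. DESeq2 replaces single outlying counts in groups of this size. Named members are the 10 highest in mean CPM, the 10 lower and 5 higher in level and the 5 in each direction of the ratio by p-value, the 5 highest and 5 lowest pooled ratios, and let-7e, mir-192, mir-181b-1 and mir-497, named in an earlier account. Loci on opposite strands were chosen after their values were seen. Scripts were tested on simulated data. Sequences are RefSeq, build GRCr8, and folding energies came from ViennaRNA 2.7.2. Depth was 3360055 to 13097872 counts per library.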

Additional observations from a re-analysis of the deposited data

Results flagged for a closer look

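In 6 cases 1 library stood far from the other 9 of its group (Dixon's gap test at 95%, which chance passes in about 1 of 20 groups). The number of groups examined is not given here, so the 6 cases cannot be set against what chance would give. Ratios here are hairpin counts per 100 arm counts with 0.5 added to both counts, and the cause was not tested in any of them. The mir-185 ratio was 2.54 in control 8. The mir-200a hairpin stood at 0.393 CPM in control 9, from 2 counts. The mir-3102 ratio was 1689.9 in CFA 3, the library with the lowest hairpin share and the highest glial sum. The mir-296 ratio was 0.375 in CFA 10, where its hairpin had 0 counts. The mir-3557 ratio was 12300 in CFA 9 and the mir-6316 ratio 42900 in CFA 1, both libraries with 0 counts of those arms.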

How the results depend on the processing

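Of members lower in level by edgeR at the adjusted threshold (0 as reported), upper-quartile factors gave 3, sample quality weights 2, DESeq2 24 and single libraries left out 0 to 6. At an unadjusted p (74 as reported) the count was 3 with hairpins scaled to hairpins, 26 without controls 1 to 3, 13 without controls 1 to 3 and CFA 8 to 10, 29 with DESeq2 without controls 1 to 3, 21 among members at 5 or more counts in all 20 libraries, and 54 to 98 with single libraries left out. The median log2 fold change (-0.92) was 0.065 with hairpins scaled to hairpins and -1.01 to -0.71 with single libraries left out. Ratios lower at the adjusted threshold (4 as reported) numbered 2 with limma at either pseudocount, 15 with all arms as denominator, 8 without a filter, 2 among members at 5 or more in all libraries, and 0 without controls 1 to 3 (with or without a filter), without CFA 8 to 10 or without both. Leaving out single libraries gave 1 to 25, with 25 without CFA 8 and 23 without control 9. At an unadjusted p (49 as reported) they numbered 84 without a filter, 18 without controls 1 to 3, 9 without both sets, 13 among members at 5 or more in all libraries and 30 to 58 with single libraries left out; the median (-0.81) then ran from -0.88 to -0.65.

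With the replicate number as a block, 8 members were lower in level (mir-152, mir-181b-1, mir-200a, mir-296, mir-497, mir-6319-1, mir-6326 and mir-708) and 4 in ratio (mir-181b-1, mir-296, mir-497 and mir-708). Deviations of same-numbered libraries correlated at -0.416 to 0.605, over 0.1 in 5 of 10 pairs, and 3 of 10 matched their own number best. The labels do not say whether the numbers mark pairs, and whether they do is unknown.

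Some named directions reversed. With upper-quartile factors mir-431 was at -0.11 and mir-214 at -0.088; mir-431 was at -0.043 with factors from arms and -0.0030 with the block, and mir-214 at -0.28 with quality weights and -0.23 without CFA 8 to 10. With hairpins scaled to hairpins, mir-425 was at 0.013, mir-320 at 0.30, mir-344b-1 at 0.23, mir-6327 at 0.053 and mir-7a-1 at 0.039. Without controls 1 to 3, without these and CFA 8 to 10, with DESeq2 without the controls, and without a filter and the controls, in that order, mir-425 gave 0.13, 0.073, 0.12 and 0.19, mir-1193 0.38, 0.30, 0.37 and 0.44, mir-320 0.72, 0.50, 0.71 and 0.76, mir-344b-1 1.05, 0.85, 1.05 and 1.09, mir-1843b 0.14, 0.090, 0.12 and 0.21, mir-6327 0.31, 0.21, 0.29 and 0.38, and mir-214 -0.038, -0.35, -0.048 and -0.0041. Leaving out single libraries gave -0.036 to 0.12 for mir-431, -0.12 to 0.28 for mir-214 and -0.66 to 1.65 for the mir-6316 ratio. With all arms as denominator the ratios of mir-3557, mir-6316, mir-632, mir-3543-1 and mir-6323 were at -1.08, -1.37, -0.55, -1.48 and -1.27; mir-6316 was at -0.66 with the more abundant arm alone and mir-632 at -0.10 without both sets of libraries. The causes were not tested. Leaving out CFA 8 to 10 or controls 1 to 3 also leaves fewer samples. The DESeq2 fit without controls 1 to 3, the unfiltered fit without them, and the abundance classes were chosen after seeing the data. The comparison of microRNA-processing genes in the mRNA libraries was not run, since no table used here pairs their identifiers with symbols. With 167 members under a mean of 20 counts, depth limits the precision of most single hairpins.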
